A study of Mus musculus with 21 samples.

Results

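The first day of muscle repair after toxin injury was examined by comparing 4 tibialis anterior muscle samples taken 1 day after notexin (1 dpi, mice A to D) with 4 uninjured samples (mice A to D). These 8 samples are all those of injury day 0 or 1 among the 21 of the series, and they hold 24160 of its 87822 cells. All 8 came from female C57Bl/6J mice aged 20 months, with 1 mouse per sample. In the injured group notexin, a snake venom phospholipase that destroys muscle fibres, was injected into both tibialis anterior muscles, while the uninjured mice received no toxin. Whole muscles were dissociated to single cells without sorting and profiled with the 10x Chromium v3 kit. The tables give each cell's total of unique molecular identifiers (UMIs, a count of captured RNA molecules after subtraction of ambient RNA), the genes detected, the percentage of its UMIs in classes of genes, and the cell type that the authors assigned after Harmony, BBKNN and Scanorama integration. Harmony types were used throughout, and no values of single genes were in the tables, so marker genes were not examined.

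Myofibre death opens repair. Neutrophils and blood monocytes enter the tissue within the first days, clear debris and give rise to macrophages. Fibro-adipogenic progenitors (FAPs) are mesenchymal cells that respond early with matrix and cytokine production. Muscle stem cells (MuSCs) leave quiescence and later divide. Fibres in dissociated muscle survive mostly as fragments and nuclei, which appear as myonuclei types.

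The uninjured libraries held 2267, 3413, 5029 and 974 cells in mice A to D, and the 1 dpi libraries 2912, 1197, 4530 and 3838. Median UMIs per cell were 3115 to 4774 in uninjured muscle and 4300 to 8897 at 1 dpi. Library measures moved with injury as well: the share of reads that fell in called cells was 44.2 to 56.3% in the uninjured libraries and 79.0, 47.7, 91.8 and 85.9% in 1 dpi mice A to D. The share of called barcodes kept as cells was 25.3 to 49.5% in uninjured muscle and 54.3 to 83.2% at 1 dpi. 1 dpi mouse B stood apart from its group in both measures and in its immune share, so results are also given without it where it mattered. All kept cells carried a singlet call, and any 2 libraries shared at most 8 barcodes, and at most 0.334% of the smaller library.

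Immune cells made up most of the labelled cells 1 day after injury. They were 2.51, 3.73, 2.15 and 2.47% of labelled cells in uninjured mice A to D, and 76.5, 38.7, 76.1 and 72.0% in 1 dpi mice A to D. The lowest injured value lay far above the highest uninjured one, and mouse B lay well below the other 1 dpi mice. The exact 95% binomial interval of mouse B, 35.9 to 41.6%, did not reach the other 1 dpi mice. Such intervals cover counting error only. The means were 2.71 ± 0.694% and 65.9 ± 18.2% (SD, n = 4), a difference of 63.2 percentage points (two-sided exact permutation test, p = 0.0286, the smallest that 4 against 4 mice allow). Leaving out any 1 of the 8 mice gave differences of 59.6 to 72.2 points, the largest without 1 dpi mouse B. These are shares, so fewer cells of the other types and more immune cells cannot be told apart, nor can differences in recovery at dissociation.

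**Figure D1:**
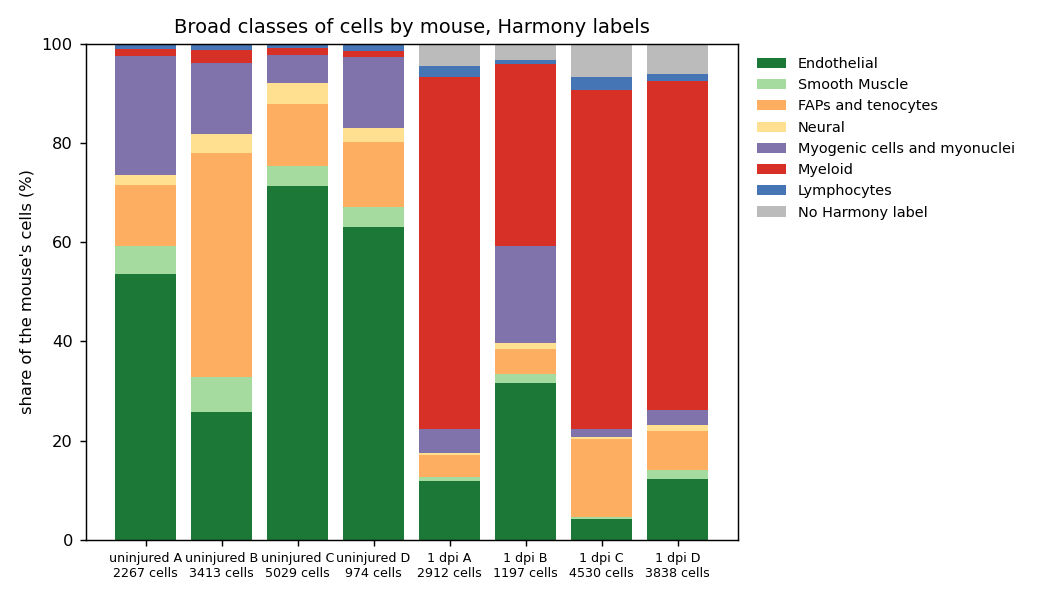
Share of each mouse's cells (y axis, percent) in 7 broad classes and without a Harmony label, stacked in 1 bar per mouse, for uninjured mice A to D and 1 dpi mice A to D. Myeloid cells fill most of the bar in 1 dpi A, C and D, and 1 dpi B keeps a larger endothelial share.

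Most of this difference lay in the myeloid cells. They averaged 1.69 ± 0.673% of labelled cells in uninjured muscle and 64.0 ± 17.5% at 1 dpi, while lymphocytes averaged 1.02 ± 0.288% and 1.86 ± 0.887%. Smooth muscle cells, the contractile cells around vessels, averaged 5.20% uninjured and 1.30% at 1 dpi. Neural cells, which include glia, averaged 3.17 and 0.801%. The groups did not overlap for myeloid, smooth muscle and neural cells (exact permutation p = 0.0286 each), but after adjustment over the 7 classes none passed (0.0% called, lowest adjusted p = 0.0667). Endothelial cells ranged between 25.7 and 71.4% in uninjured muscle and between 4.40 and 32.7% at 1 dpi, and these ranges overlapped. With uninjured mouse B or 1 dpi mouse B left out, 4 of the 7 classes reached the smallest exact permutation p for 3 against 4 mice. Their adjusted p then equalled the threshold and did not lie under it, so these were not counted as passing.

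Within the immune compartment neutrophils and 2 monocyte types rose, and B, T and NK cells fell. Of 10 immune types, 6 passed limma with Benjamini-Hochberg adjustment over the types (60.0% called), 3 rising and 3 falling, and in all 6 the 2 groups of mice did not overlap. The exact permutation test, adjusted over the same types, called these 6 as well (adjusted p = 0.0476 each). Shares here are of the immune cells of each mouse, which numbered 24 to 127 in uninjured muscle and 449 to 3222 at 1 dpi, so the uninjured values rest on few cells. With a stricter filter on cells, patrolling monocytes and T cells alone passed, and among cells given the same broad class by all 3 label sets neutrophils, patrolling monocytes, T cells and B cells passed.

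Patrolling monocytes, which the authors describe as Fabp5-high and negative for Cx3cr1 and Ly6c2, showed the largest rise. They were 0 of 57, 1 of 127, 2 of 108 and 0 of 24 immune cells in uninjured mice A to D, and 14.4, 17.8, 19.2 and 12.6% in 1 dpi mice A to D. The counts of 0 allow shares of up to 5.26% in uninjured mouse A and 12.5% in mouse D. The mean rose from 0.660 ± 0.877% to 16.02 ± 3.01% (SD, n = 4; limma, adjusted p = 3.31e-06). The name held only in the Harmony labels: of the 1333 such cells at 1 dpi, 1212 were infiltrating monocytes in the BBKNN labels and 1001 were inflammatory monocytes in the Scanorama labels. In broad class, 1332 of the 1333 were myeloid in all 3 label sets.

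Neutrophils, the first granulocytes to reach a wound, made up 15.8, 3.94, 12.96 and 4.17% of immune cells in uninjured mice and 22.7, 16.04, 18.3 and 15.9% at 1 dpi. Uninjured mouse A lay just under the lowest 1 dpi mouse. The mean rose from 9.21 ± 6.07% to 18.2 ± 3.19% (limma, adjusted p = 0.0199). Inflammatory monocytes, the recruited precursors of wound macrophages, were 12.3, 26.0, 14.8 and 25.0% in uninjured mice and 27.4, 32.1, 27.0 and 34.0% at 1 dpi, with means of 19.5 ± 6.98% and 30.1 ± 3.44% (limma, adjusted p = 0.0199). These calls were the weakest of the 6. Neutrophils lost theirs without uninjured mouse B (limma, adjusted p = 0.0669) or 1 dpi mouse A (0.0566), and inflammatory monocytes lost theirs without uninjured mouse A (0.0693), uninjured mouse C (0.0748), 1 dpi mouse B (0.0546) or 1 dpi mouse D (0.0631). The inflammatory monocyte call was also lost with the immune cells that carry no Harmony label added to the denominator (0.0539).

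Lymphocytes fell as a share of the immune cells. B cells were 22.8, 15.7, 12.96 and 20.8% of immune cells in uninjured mice A to D and 0.376, 0.668, 0.652 and 0.462% at 1 dpi (limma, adjusted p = 1.31e-06). In cells, these were 13, 20, 14 and 5 against 8, 3, 21 and 12. T cells fell from 15.8, 10.2, 14.8 and 29.2% to 2.21, 1.34, 2.55 and 1.31% (limma, adjusted p = 9.98e-05). Natural killer (NK) cells, of which uninjured mice had only 1 to 3 cells each, fell from a mean of 2.97 ± 1.06% to 0.354 ± 0.202% (limma, adjusted p = 0.00668).

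The direction depended on the denominator. As shares of all labelled cells, T cells were higher at 1 dpi (limma on the arcsine square root scale, difference 0.0403, adjusted p = 0.0448), NK cells did not pass (0.0182, adjusted p = 0.186), and B cells did not pass either (-0.0126, adjusted p = 0.298). Part of the T cell label was also unclear at 1 dpi. In mouse A 29 of 47 T cells, and in mouse B 3 of 6, had under 75% of their UMIs in protein-coding genes, all of them myeloid in the BBKNN labels, and no T cell of the other 6 mice did.

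The other 4 immune types, among them the macrophages and the dendritic cells, did not pass. Cx3cr1-high M2 macrophages averaged 5.45 ± 2.24% and 8.50 ± 0.641% (limma, adjusted p = 0.106), and Cx3cr1-low M2 macrophages 15.01 ± 5.81% and 13.5 ± 1.43% (0.701). Dendritic cells averaged 5.07 ± 3.88% and 6.59 ± 1.53% (limma, adjusted p = 0.306). Cxcl10-positive monocytes averaged 6.52 ± 2.74% and 4.25 ± 0.649% (limma, adjusted p = 0.237), but this label was unstable in uninjured muscle, where the 3 label sets gave 5 of 22 such cells the same broad class, against 339 of 351 at 1 dpi.

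**Figure D2:**
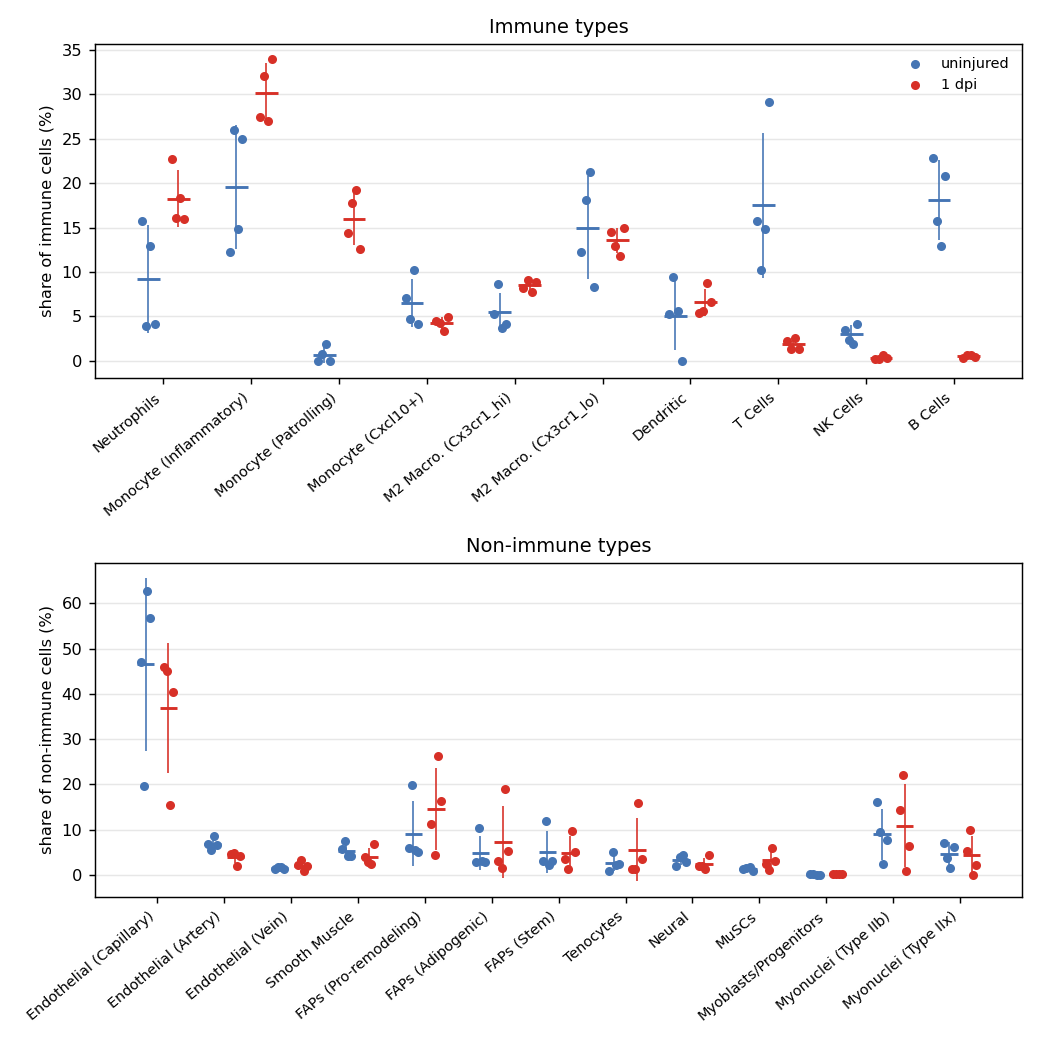
Share of each Harmony type among the mouse's immune cells and among its non-immune cells (percent), 1 dot per mouse, with the mean and SD of each group. Patrolling monocytes sit between 12.6 and 19.2% at 1 dpi and at or below 1.85% in uninjured mice, B cells show the opposite order, and the non-immune types largely overlap.

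Among non-immune cells none of 13 types passed limma (0.0% called; 1 type at an unadjusted p under 0.05 by limma and 0 by edgeR). Arterial endothelial cells came closest and did not overlap: 6.74, 5.46, 8.55 and 6.53% of non-immune cells in uninjured mice A to D against 4.601, 4.93, 1.98 and 4.27% at 1 dpi (limma, adjusted p = 0.457). Capillary endothelial cells, the commonest type, ranged from 19.6 to 62.7% in uninjured muscle and from 15.5 to 46.0% at 1 dpi. MuSCs averaged 1.36 ± 0.353% and 3.20 ± 2.08% (limma, adjusted p = 0.673). Single mice set much of the spread. Uninjured mouse B was rich in all 3 FAP types, and 1 dpi mouse C had 15.8% tenocytes (tendon fibroblasts) and 0 type IIx myonuclei of 1010 non-immune cells, which allows a share of up to 0.297%. As shares of all labelled cells, capillary and arterial endothelial cells, smooth muscle cells and neural cells were lower at 1 dpi by limma, beside the immune cells that filled the same libraries.

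More UMIs were counted per FAP at 1 dpi. The UMI test used 11 types with at least 10 cells in at least 3 mice of each group, and 5 passed limma (45.5% called), of which 3 rose (27.3%) and 2 fell (18.2%). The 3 that rose were the 3 FAP types. Tenocytes were not tested, since 1 dpi mice A and B had 9 of them each. Their medians were 4570, 3218, 3954 and 6905 UMIs in uninjured mice A to D. In 1 dpi mice C and D they were 10831 and 10719. With a minimum of 5 cells, 8 of 17 types passed, 6 of them rising. Values are each mouse's median UMIs per cell of the type, compared on the log2 scale.

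Pro-remodeling FAPs, the matrix-producing FAP subset, had medians of 6726, 4092, 5029 and 8028 UMIs in uninjured mice A to D and 29297, 10642, 21025 and 26027 at 1 dpi. Every injured mouse lay above every uninjured one, with mouse B lowest. The log2 difference was 1.82 ± 0.27 (SE), a 3.52-fold rise (95% interval 2.42 to 5.12; limma, adjusted p = 8.14e-08). Stem FAPs, the least differentiated subset, had 9262, 5616, 6076 and 10507 UMIs in uninjured mice and 37372, 19970 and 21878 in 1 dpi mice A, C and D, a 3.34-fold rise (2.23 to 5.01; limma, adjusted p = 7.64e-07). Adipogenic FAPs, named for their capacity to form fat, had 6864, 3943, 5244 and 6948 UMIs in uninjured mice and 10287, 10474, 13420 and 19242 at 1 dpi. Their rise was 2.30-fold (1.58 to 3.35; limma, adjusted p = 1.00e-04).

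Endothelial, smooth muscle and neural cells of the same libraries did not pass the same test. Capillary endothelial cells had medians of 4276, 2779, 2561 and 3147 UMIs in uninjured mice A to D and 2704, 2685, 5251 and 3590 at 1 dpi, a 1.09-fold difference (0.752 to 1.59; limma, adjusted p = 0.693). Arterial cells differed 1.20-fold (0.824 to 1.74), venous cells 1.08-fold (0.723 to 1.62), smooth muscle cells 0.799-fold (0.549 to 1.16) and neural cells 1.35-fold (0.927 to 1.96), and none passed. Taken relative to the capillary endothelial cells of the same mouse, which came from the same library, the log2 rise was 1.69 ± 0.34 (SE) in pro-remodeling FAPs (limma, adjusted p = 5.42e-05), 1.496 ± 0.37 in stem FAPs (0.000511) and 1.08 ± 0.34 in adipogenic FAPs (0.00639). Over whole classes, FAPs and tenocytes exceeded endothelial cells by a log2 mean of 0.83 in uninjured mice and 2.23 at 1 dpi. The difference was 1.398 (exact permutation p = 0.0286). With each of the 8 mice left out in turn it stayed under 0.05 in only 4 cases (exact permutation p up to 0.0571).

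**Figure D3:**
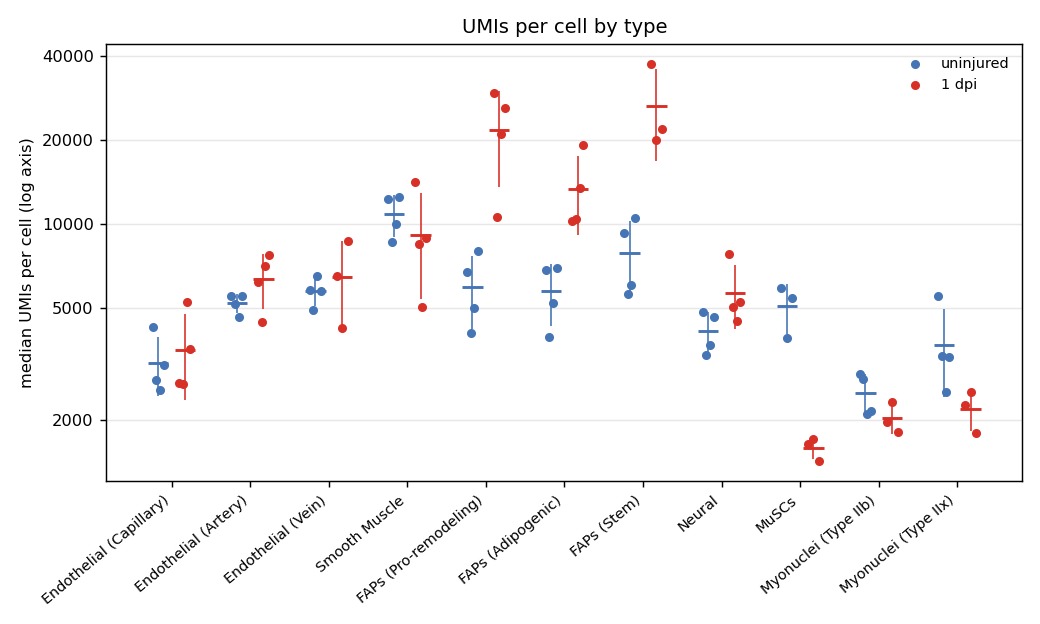
Median UMIs per cell (log axis) of 11 non-immune types in each mouse, 1 dot per mouse with at least 10 cells of the type, with the mean and SD of each group. The 3 FAP types sit higher at 1 dpi with no overlap, MuSCs sit lower, and capillary endothelial cells overlap.

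MuSCs went the other way. Their medians were 5892, 3912 and 5450 UMIs in uninjured mice A to C and 1639, 1712 and 1428 in 1 dpi mice A, C and D, the mice with at least 10 such cells. The log2 difference was -1.66 ± 0.31 (SE), 0.317-fold (95% interval 0.206 to 0.489; limma, adjusted p = 6.08e-06). With 3 against 3 mice an exact permutation test cannot go below 0.1, its value here. Of the 117 MuSCs at 1 dpi only 30 had the same broad class in all 3 label sets, against 162 of 172 in uninjured muscle. The MuSC values here and below thus compare cells that the other label sets often name differently in the 2 groups. Type IIx myonuclei, nuclei of fast fibres, had 5527, 3382, 2519 and 3362 UMIs in uninjured mice and 2257, 2516 and 1799 in 1 dpi mice A, B and D (0.612-fold; limma, adjusted p = 0.0397). The highest 1 dpi value was nearly equal to the lowest uninjured one, and the call was lost when uninjured mouse A, B or D or 1 dpi mouse A or D was left out (limma, adjusted p up to 0.222). Type IIb myonuclei, from the fastest fibres, did not pass (0.819-fold, 0.547 to 1.23). The split into these 2 fibre types held only in the Harmony labels. For each type BBKNN repeated the name in at most 1 cell of any mouse, and Scanorama in 0. The broad class was the same in all 3 label sets for 98.4 to 100% of type IIb and 100% of type IIx at 1 dpi.

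The limma fits of UMIs and genes estimated nearly the same spread for every type (SE 0.27 on the log2 scale for types with 4 against 4 mice), and they treat the types of 1 mouse as separate although these share a library. The exact test per type called 0 of 11 types after adjustment, where a type at the smallest p can pass only if at least 7 of the 11 reach it. At an unadjusted p under 0.05 it called the 3 FAP types.

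UMIs per cell also rose in myeloid cells. No immune type had 10 cells in all 8 mice, so the broad class was used: median UMIs ranged from 4736 to 7267 in uninjured mice and from 7781 to 11618 at 1 dpi, a 1.76-fold rise (limma over the 7 classes, adjusted p = 0.00486). Of the 7 classes 3 passed (42.9% called), the others being FAPs and tenocytes (2.90-fold, adjusted p = 2.99e-05) and the myogenic class (0.565-fold, adjusted p = 0.00486). The myeloid rise was not shown to exceed the endothelial one: the log2 difference between the classes was 0.77 in uninjured mice and 1.44 at 1 dpi (exact permutation p = 0.171). The make-up of the myeloid class also moved, with 62 inflammatory and 3 patrolling monocytes in uninjured muscle and 2479 and 1333 at 1 dpi. Its values thus mix cell types. Inflammatory monocytes had medians of 4563 and 5945 UMIs in uninjured mice B and C and 7802 to 13151 at 1 dpi. Cx3cr1-low M2 macrophages had 6086 and 5549 in those mice and 7675 to 13132 at 1 dpi. Neutrophils had 2545 in uninjured mouse C and 1595 to 3416 at 1 dpi. Too few uninjured mice had 10 such cells for a test.

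Over all cells the log2 median of UMIs per cell averaged 11.9 in uninjured mice and 12.8 at 1 dpi, a difference of 0.88 (exact permutation p = 0.0571). Without 1 dpi mouse B it was 1.12 (exact permutation p = 0.0286). Giving equal weight to the 6 types with enough cells in all 8 mice, the difference was 0.59 (exact permutation p = 0.0571).

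The number of detected genes followed the UMIs. Of 11 types 4 passed limma (36.4% called), 3 up (27.3%) and 1 down (9.09%). Pro-remodeling FAPs rose from a mean of 2145 to 4587 genes per cell (2.14-fold; limma, adjusted p = 1.90e-06), stem FAPs from 2540 to 5072 (2.03-fold, 1.80e-05) and adipogenic FAPs from 2035 to 3644 (1.80-fold, 7.31e-05). MuSCs fell from 1500 to 758 (0.511-fold, limma adjusted p = 7.31e-05). Of the MuSCs at 1 dpi, 61 of 117 had fewer than 750 genes, the minimum in the methods, against 1 of 172 in uninjured muscle. Neural cells averaged 1692 and 2177 genes and the groups did not overlap, but this did not pass (limma, adjusted p = 0.107). In cells with 2000 to 5000 UMIs, only 4 types had enough cells in both groups, and 0 passed. No FAP type or MuSCs were among them, so this window could not examine the types that passed. Whether their gene changes go beyond those in UMIs was not tested.

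Gene-class percentages shifted in most types. Of the 11 classes, 3 (small nucleolar, micro and small nuclear RNA) had medians of 0 and were not tested; in the other 8, 47 of 88 pairs of class and type passed limma with adjustment within the class (53.4% called), 22 up (25.0%) and 25 down (28.4%). The classes overlap, since mitochondrial and protein-coding percentages sum to over 100 in 45.3% of cells, and all are shares of the same total.

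Ribosomal protein transcripts rose in FAPs. In pro-remodeling FAPs they made up 8.03, 8.55, 7.82 and 9.84% of UMIs in uninjured mice A to D and 20.5, 15.4, 17.3 and 18.0% at 1 dpi, with no overlap (limma, adjusted p = 7.13e-05). Means rose from 13.1 ± 0.735% to 20.0 ± 2.03% in stem FAPs and from 11.8 ± 1.05% to 18.1 ± 2.36% in adipogenic FAPs. Neural cells were the remaining type to pass, at 7.33 ± 0.313% and 9.68 ± 0.722%. These made 4 of 11 types (36.4% called), and the same count or 1 more was reached whichever mouse was left out. Capillary endothelial cells ranged from 7.29 to 8.89% and from 6.67 to 12.7% (limma, adjusted p = 0.716).

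The percentage of long intergenic noncoding RNA (lincRNA) fell in the 3 FAP types and in MuSCs. These were 4 of 11 types (36.4% called). It fell in pro-remodeling FAPs from 2.91, 2.34, 2.78 and 3.25% to 0.940, 1.16, 1.09 and 0.847%, in adipogenic FAPs from a mean of 2.72 to 1.27%, in stem FAPs from 2.02 to 0.733%, and in MuSCs from 2.67, 2.24 and 2.67% to 0.136, 1.17 and 0.104%. 1 dpi mouse C was the high value among the MuSCs. As median percentage times median UMIs, lincRNA was 95.9 to 261 UMIs per cell in pro-remodeling FAPs of uninjured mice and 124 to 275 at 1 dpi, 99.2 to 262 and 128 to 250 in stem FAPs, and 84.5 to 266 and 110 to 194 in adipogenic FAPs, so in FAPs the groups overlapped in number. In MuSCs it was 87.8 to 157 UMIs in uninjured mice and 1.48 to 20.1 at 1 dpi. These products were not tested.

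Heat-shock gene transcripts, a sign of stress that dissociation can also raise, passed limma in 8 of 11 types (72.7% called), rising in 7 (63.6%) and falling in 1 (9.09%). Capillary endothelial cells had 0.567, 0.681, 0.615 and 0.641% in uninjured mice A to D and 1.49, 0.956, 1.32 and 1.12% at 1 dpi (limma, adjusted p = 0.000408). Type IIb myonuclei rose from a mean of 0.393 ± 0.0291% to 1.04 ± 0.335%, stem FAPs from 0.632 to 1.32%, venous endothelial cells from 0.689 to 1.32%, type IIx myonuclei from 0.525 to 1.11%, pro-remodeling FAPs from 0.808 to 1.32% and adipogenic FAPs from 0.560 to 0.959%. MuSCs fell from 1.58 ± 0.377% to 0.966 ± 0.0579% (limma, adjusted p = 0.00617). In cells with 2000 to 5000 UMIs the calls in capillary endothelial cells and both myonuclei types held, as did those of the transcription factors below in both myonuclei types. As median percentage times median UMIs, type IIx myonuclei had 12.3 to 28.1 heat-shock UMIs in uninjured mice and 15.2 to 30.0 at 1 dpi, which overlapped. Type IIb had 8.09 to 11.6 and 15.3 to 25.7.

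The percentage of transcription factor transcripts fell in MuSCs, from 4.45, 5.48 and 6.07% to 1.86, 3.32 and 2.45%, and in pro-remodeling FAPs, from a mean of 4.48 to 3.41%. As median percentage times median UMIs, these were 214 to 331 UMIs per cell in MuSCs of uninjured mice and 30.4 to 56.8 at 1 dpi, but 192 to 402 and 365 to 976 in pro-remodeling FAPs, where the number was not lower. The percentages rose in type IIb myonuclei, from 1.43 to 1.92%, and type IIx myonuclei, from 1.38 to 1.98%. In number the groups of mice overlapped in both. Type IIb had 32.9 to 39.6 such UMIs in uninjured mice and 36.7 to 43.3 at 1 dpi. Type IIx had 36.6 to 77.2 and 41.6 to 44.2. Of 11 types 4 passed (36.4% called). The myonuclei calls were lost without 1 dpi mouse A or D or uninjured mouse B, and in type IIb also without 1 dpi mouse B or C.

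Mitochondrial transcripts were lower in all 11 types at 1 dpi, and 9 passed limma (81.8% called). In capillary endothelial cells the medians were 20.0, 23.6, 18.0 and 9.45% in uninjured mice A to D and 6.18, 9.66, 4.22 and 6.96% at 1 dpi. Uninjured mouse D lay below its group and 1 dpi mouse B above it, so the ranges overlapped (limma, adjusted p = 0.0150). Pro-remodeling FAPs ranged from 6.17 to 17.6% and from 3.12 to 6.96%, and MuSCs 17.7 ± 5.19% and 8.27 ± 2.71%. The calls depended on 6 of the 8 mice: no type passed without uninjured mouse A, B or C or 1 dpi mouse A, C or D, whereas 9 passed without 1 dpi mouse B and 11 without uninjured mouse D. Protein-coding percentages rose in 9 of 11 types (81.8% called), most in stem FAPs, from 89.4 to 94.6%, with 5 types left without 1 dpi mouse D. The highest were reached in myonuclei, which did not pass.

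The antisense percentage fell in 5 types (45.5% called) and that of bidirectional-promoter lncRNA in 4 (36.4% called). Both are rare. The antisense count was 2 without uninjured mouse C or D, 3 without 1 dpi mouse A or D, and 8 without 1 dpi mouse B. Antisense fell from 0.105 to 0.0598% in pro-remodeling FAPs, which, multiplied by the median UMIs of each mouse, is 3.65 to 9.52 UMIs per cell in uninjured mice and 8.43 to 15.2 at 1 dpi, so the number of such UMIs was not lower. In MuSCs the 1 dpi antisense level was 0.220 to 0.605 UMIs per cell, and in type IIx myonuclei the bidirectional-promoter class was at a median of 0 at 1 dpi against 0.551 to 1.06 UMIs, levels too near 1 UMI to be read as a change.

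**Figure D4:**
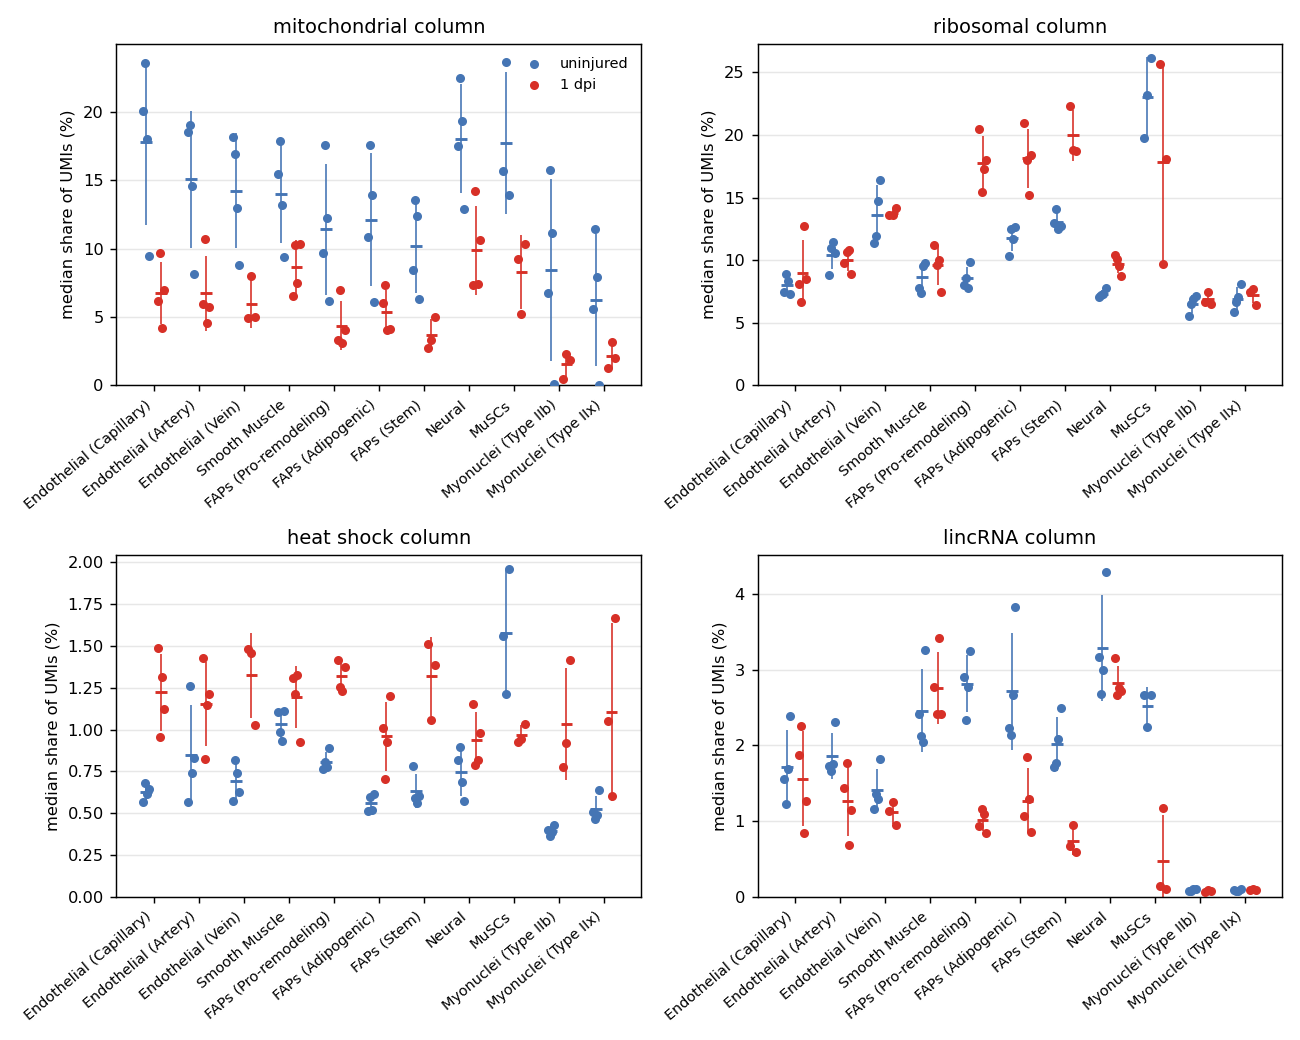
Median percentage of UMIs in mitochondrial, ribosomal protein, heat-shock and lincRNA genes (y axes, percent) for each tested type, 1 dot per mouse, with the mean and SD of each group. Ribosomal percentages separate the groups in the FAP types, heat-shock percentages in most types, and mitochondrial ranges often overlap.

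The MuSC label at 1 dpi was given by the Harmony set to many cells that the other sets named differently. In uninjured mice A to D 88.9 to 100% of MuSCs, 162 of 172, had the same broad class in all 3 label sets. At 1 dpi it was 43.8, 50.0, 16.4 and 28.1% in mice A to D, 30 of 117. The groups did not overlap (exact permutation p = 0.0286), but after adjustment over the 13 types tested none passed (0.0% called, adjusted p = 0.186). BBKNN placed 24 of the 117 among myoblasts, 22 among T cells, 21 among capillary endothelial cells and 14 among FAPs. Of the 117, 61 had fewer than 750 genes, against 1 of 172 in uninjured muscle. Among the cells with 1 class in all sets, median UMIs were 2101, 1508, 1284 and 1610 in 1 dpi mice A to D, from 7, 4, 10 and 9 cells, too few for the test, against 6074, 3896, 5394 and 8378 in uninjured mice. MuSCs placed in the quiescent state of the authors' myogenic trajectory numbered 5, 4, 10 and 8 in 1 dpi mice A to D. Their median UMIs were 1319, 1508, 1284 and 1487. In uninjured mice A to D there were 14, 36, 67 and 4, with medians of 6354, 3849, 5316 and 6043. In 1 dpi mice B and C both sets had the same numbers of cells and the same medians, so this is not a separate check. Median lincRNA percentages of the quiescent cells were 0.0901, 0, 0.0590 and 0.0789% in 1 dpi mice A to D. In uninjured mice they were 2.58, 2.24, 2.67 and 3.24%.

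Few cells stood beyond quiescence. Activated and committed states held 4 and 3 cells in all uninjured mice and 0 at 1 dpi, and with so few cells in any state their shares were not tested. Fusing myocytes numbered 10, 4, 6 and 1 in uninjured mice A to D and 3, 3, 0 and 3 at 1 dpi.

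FAP subtypes were also named differently by the 3 methods. Of the pro-remodeling FAPs in uninjured muscle, 1082 of 1097 (98.6%) were adipogenic FAPs in the BBKNN labels, whereas at 1 dpi 485 of 534 (90.8%) were pro-remodeling FAPs there and 463 (86.7%) were tenocytes in the Scanorama labels. Adipogenic FAPs kept that name in the BBKNN labels in 567 of 581 cells of uninjured muscle and in 43 of 277 at 1 dpi, where 210 were pro-remodeling FAPs, and in the Scanorama labels in 547 of 581 and 41 of 277. Of the stem FAPs, Scanorama named 582 of 590 adipogenic FAPs in uninjured muscle and 166 of 182 tenocytes at 1 dpi. The UMI rise of each FAP type thus compares cells that the other label sets name differently in the 2 groups. The same broad class in all 3 label sets was given to 99.4 to 100% of pro-remodeling FAPs in uninjured mice. At 1 dpi it was 98.6 to 100%. For stem FAPs the ranges were 99.7 to 100% and 95.7 to 100%. Adipogenic FAPs were lower, at 89.3 to 98.4% and 80.0 to 93.75%. Among cells with the same class in all 3 label sets the UMI rises in all 3 FAP types passed again. Log2 differences were 1.82, 1.76 and 1.41 in pro-remodeling, stem and adipogenic FAPs (limma, highest adjusted p = 9.75e-06). That filter acts on the broad class, and at 1 dpi it kept 533 of 534, 178 of 182 and 256 of 277 of these cells. It cannot address the difference in subtype names.

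**Figure D5:**
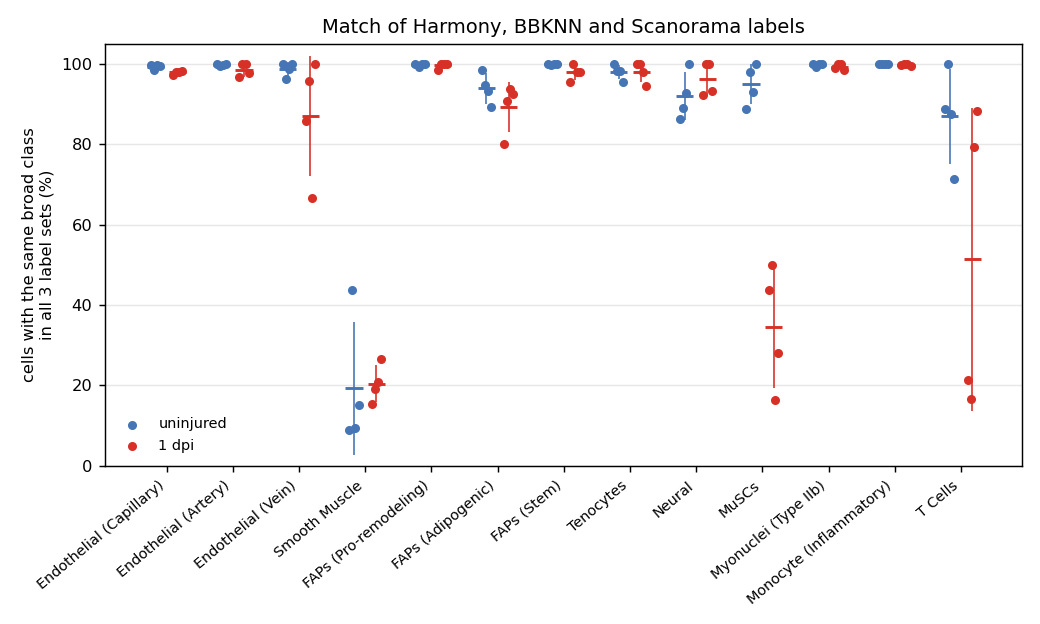
Share of cells of each type given the same broad class by the 3 label sets (percent), 1 dot per mouse with the mean and SD of each group, for 13 types with at least 5 cells in all 8 mice. MuSCs at 1 dpi lie between 16.4 and 50.0% against 88.9 to 100% in uninjured mice, smooth muscle cells lie below 43.9% in both groups, T cells spread widely at 1 dpi, and the other types lie mostly above 80.0%.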

How the data were processed

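Single-cell libraries of 8 tibialis anterior muscles were analysed from per-cell tables. Per the labels and the study's methods, the authors aligned reads to mm10 with Cell Ranger 3.1.0 and removed ambient RNA with SoupX. They then filtered cells, removed doublets, used Seurat and labelled types after Harmony, BBKNN and Scanorama. The Seurat version is 3.1.5 in the labels, whereas the methods give a later one. The deposited UMI totals are expected counts after ambient subtraction. The deposited gene numbers are counts, the gene-class columns are percent of UMIs, and the SoupX and doublet columns are a fraction, as the authors gave them. The 8 tables held cells with as few as 499 genes, and 1999 cells below 750, the minimum in the methods. The gene lists behind the percentages are not given in the sources used here.

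The mouse was the unit, with groups taken from the injury label. The labels tie no mouse to one of the other group. Per the study's methods mice of several time points were collected on the same day, but which mice shared a day is not given in the sources used here. Type shares (arcsine square root), log2 median UMIs and genes, and median percentages (arcsine square root) were fitted with limma 3.58.1 in R 4.3.3, with Benjamini-Hochberg adjustment and a threshold of 0.05. A type entered with at least 10 cells in at least 3 mice per group. Single values used two-sided exact permutation tests. The scripts were tested on simulated data. Types were named where tested, and percentage pairs by the largest called changes. The members and lists were chosen with earlier results of these data known. A planned comparison of immune with non-immune types could not be fitted and was replaced by broad classes. Alternatives included edgeR 4.0.16 on cell numbers, other filters, and leaving out each mouse. The comparison of the label sets, the broad-class UMI tests and the restriction to cells of the same class in all 3 label sets were chosen after seeing the data.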

Additional observations from a re-analysis of the deposited data

Results flagged for a closer look

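Values far from the rest of a group of 4 mice were found by Dixon's criterion, which chance meets in about 1 of 20 groups. Shares and gene-class percentages of many types were screened, and the number that chance alone would flag is not given. The immune share of 1 dpi mouse B was 38.7%, with the other 3 at 72.0 to 76.5%. Among non-immune cells uninjured mouse B had 19.8% pro-remodeling FAPs (the others 4.95 to 6.02%), 10.4% adipogenic FAPs (2.85 to 3.01%) and 11.9% stem FAPs (2.14 to 3.06%). 1 dpi mouse C had 15.8% tenocytes, against 1.27 to 3.57% in the others. The bidirectional-promoter lncRNA percentage of venous endothelial cells was 0.0249% in uninjured mouse D and 0.0140 to 0.0151% in the others. The antisense percentage of pro-remodeling FAPs was 0.0792% in 1 dpi mouse B and 0.0517 to 0.0564% in the others.

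Types whose UMI change differed from that of capillary endothelial cells in the same mice, by limma on the within-mouse log2 difference, were pro-remodeling FAPs (1.69), adipogenic FAPs (1.08), stem FAPs (1.496) and MuSCs (-1.90).

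Cells without a Harmony label belonged to no type, and entered the comparisons of types only as an alternative denominator of the immune shares, where 5 of 10 types passed in place of 6. They made up 4.53, 3.17, 6.58 and 6.15% of the cells of 1 dpi mice A to D, against 0 to 0.146% in uninjured mice, with no overlap (exact permutation p = 0.0286). Of the 704 such cells at 1 dpi, BBKNN named 465 inflammatory monocytes and 166 infiltrating monocytes. Their median genes per cell were 860 to 1352 and their median mitochondrial percentages 9.75 to 16.2% in the 1 dpi mice.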

How the results depend on the processing

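Directions held in most alternatives and the number of calls moved. As shares of all labelled cells, T cells (0.0403) and NK cells (0.0182, adjusted p = 0.186 by limma) went up instead of down, and 4 non-immune types passed in place of 0. With the stricter filter on cells (at least 1000 genes, 2000 UMIs and at most 15% mitochondrial) 2 of 10 immune types and 3 of 8 types for UMIs passed, and the all-cell UMI difference passed at 0.71 (exact permutation p = 0.0286). Types with at least 5 cells gave 8 UMI calls and 7 gene calls of 17, and at least 20 cells 3 UMI calls of 8. Per-type means over cells made the equal-weight UMI difference 0.55 (exact permutation p = 0.0286). Cells with 2000 to 5000 UMIs gave 0 gene calls of 4 and 5 of 32 percentage calls. The exact permutation test called 0 types for UMIs, 0 for genes and 0 percentage pairs, of which 28 were under an unadjusted p of 0.05. Causes of these moves were not tested, beyond the fewer types or cells each setting holds.

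With 1 mouse left out, calls ranged from 5 to 6 for immune types and were 0 for non-immune types and for broad classes. At most 4 broad classes reached an adjusted p equal to the threshold, which is not under it. Calls ranged from 4 to 5 for UMIs, 4 to 5 for genes and 31 to 51 for percentage pairs (31 without 1 dpi mouse D). The immune share difference ranged from 59.6 to 72.2, all-cell UMIs from 0.77 to 1.12 and equal-weight UMIs from 0.49 to 0.71. Myeloid minus endothelial ranged from 0.47 to 1.00. FAPs and tenocytes minus endothelial ranged from 1.13 to 1.64, with exact permutation p up to 0.0571 and under 0.05 in 4 of 8 cases.

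The mouse letters are shared between groups. Over 29 values the same-letter deviations correlated at 0.28, -0.08, -0.16 and 0.11 for A to D. These values depend on each other, so they show no pairing by letter but cannot exclude it. With the letter as a replicate block, limma called 6 immune types, 0 non-immune types, 5 for UMIs, 5 for genes and 37 percentage pairs. The exact sign-flip test of 4 pairs cannot reach p under 0.05, since its lowest value is 2 of 16 sign patterns. That lowest value is what it gave for the immune share (63.2) and for FAPs and tenocytes minus endothelial cells (1.398), with all 4 pairs in 1 direction.

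Few uninjured immune cells per mouse (24 to 127) and few MuSCs at 1 dpi (8 to 61) limit the precision of those values.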
